A study of Mus musculus with 10 samples.

Results

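The mast cell genes are 8 of the 54987 genes for which expression was given in popliteal lymph nodes, the nodes that drain the hind paw. They were chosen by name: Cpa3, Cma1, Mcpt4 and Tpsb2, which encode granule proteases, Hdc, which encodes the enzyme that makes histamine, Kit, which encodes the receptor for stem cell factor, and Fcer1a and Ms4a2, which encode the alpha and beta chains of the high-affinity IgE receptor. All nodes came from BALB/c males aged 6 to 8 weeks and were collected on day 15 after an injection of 0.1 ml under the skin, which the protocol places in the right hind paw for the adjuvant groups. Control mice received saline (3 libraries, numbered 15, 16 and 17). AIA mice received complete Freund's adjuvant, an emulsion used to induce arthritis (4 libraries, 5, 10, 31 and 38). Acu mice received the adjuvant and acupuncture, at the point ST36 of the lower leg according to the title of the series (3 libraries, 4, 6 and 28). Whether nodes were pooled, or a mouse gave more than 1 library, is not in the labels, so the p-values reflect only how these libraries vary, which may be technical, and a sham acupuncture group was not analysed here.

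Mast cells are long-lived tissue cells that sit beside vessels and nerves in skin, fat, muscle sheaths and the capsule and sinuses of lymph nodes. They store histamine, proteoglycan and proteases in granules and release them when antigen cross-links IgE held on their surface receptor. Stem cell factor, the ligand of Kit, keeps them alive, and the transcription factors Gata2 and Mitf maintain their gene programme. In mouse, Mcpt4, Cma1, Tpsb2 and Cpa3 are typical of connective tissue mast cells, whereas Mcpt1 and Mcpt2 are typical of mucosal ones.

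Cma1 (ENSMUSG00000022225) and Mcpt4 (ENSMUSG00000061068) lie on the same strand of chromosome 14, at 55941451 to 55944675 and 56059629 to 56062313 of mm10, 114953 bases apart in the chymase cluster. Tpsb2 (ENSMUSG00000033825) is at chr17:25366550-25368094, Cpa3 (ENSMUSG00000001865) at chr3:20215620-20242181, Hdc (ENSMUSG00000027360) at chr2:126593667-126619299, Kit (ENSMUSG00000005672) at chr5:75574916-75656722, Fcer1a (ENSMUSG00000005339) at chr1:173221284-173227214 and Ms4a2 (ENSMUSG00000024680) at chr19:11615523-11623719. Of the granule proteases, Cma1, Mcpt4 and Cpa3 had a matched sequence around the start site and Tpsb2 had none. The 250 bases before the start sites of the former are printed. They come from RefSeq (GRCm38.p6) and run 5′ to 3′ along the gene, at chr14:55944676-55944925, chr14:56062311-56062560 and chr3:20242182-20242431, all on the minus strand. Capitals mark a GATA word, that is the word AGATAA, the word AGATAG, the word TGATAA or the word TGATAG on either strand, the kind of word that GATA factors recognise.
Cma1: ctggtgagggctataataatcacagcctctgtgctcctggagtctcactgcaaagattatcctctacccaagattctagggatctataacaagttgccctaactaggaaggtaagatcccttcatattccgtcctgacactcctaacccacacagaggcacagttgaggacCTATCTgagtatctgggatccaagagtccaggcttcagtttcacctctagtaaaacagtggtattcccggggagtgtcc
Mcpt4: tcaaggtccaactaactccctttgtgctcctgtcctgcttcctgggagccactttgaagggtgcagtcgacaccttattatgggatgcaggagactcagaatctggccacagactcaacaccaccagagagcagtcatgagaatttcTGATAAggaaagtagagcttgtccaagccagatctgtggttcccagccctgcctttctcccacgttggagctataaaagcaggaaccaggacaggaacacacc
Cpa3: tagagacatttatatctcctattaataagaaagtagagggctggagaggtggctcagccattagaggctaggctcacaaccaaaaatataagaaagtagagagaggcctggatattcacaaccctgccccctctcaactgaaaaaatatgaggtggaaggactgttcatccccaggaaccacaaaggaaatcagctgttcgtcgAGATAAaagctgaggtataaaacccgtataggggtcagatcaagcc
The word begins at −79 in Cma1, −103 in Mcpt4 and −46 in Cpa3, counted from the start site. RefSeq windows of 250 bases before to 50 bases after the start were matched for 7 of the 8 genes, all but Tpsb2. At least 1 GATA word was present in 6 of the 7 (Cma1, Mcpt4, Cpa3, Hdc, Fcer1a and Ms4a2, the last with 3), and in 29.8% of all 32851 windows of that length. Neither of the 2 windows of Kit held one. These are matches of letters, not binding sites.

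Each library held between 13269763 and 18926894 reads recovered from the deposited FPKM (fragments per kilobase of a gene's length, here scaled by a size factor of each library and not by its own number of reads), and the members rested on few of them, from 56 to 455 reads for the 4 proteases together. Several libraries carried RNA that a lymph node of a male mouse lacks or holds little of. The libraries labelled Control 17 and Acu 4 held markers of decidua and uterus at a summed 11570 and 4225 FPKM, against at most 8.07 FPKM in the others, and markers of trophoblast at 88.8 and 7536 FPKM. Markers of B cells summed to 1.51 and 4.12 FPKM there and to 4.47 FPKM in Control 15, against 724 to 1113 FPKM in the other 7 libraries. Control 15 and Control 16 held adipocyte markers at 26626 and 9096 FPKM, against 47.1 to 388 FPKM in the others. AIA 10 had 15116 genes above 0, against 21224 to 24411 elsewhere. Each comparison is therefore given with all 10 libraries and with 8, without the libraries labelled Control 17 and Acu 4. This leaves 2 Control, 4 AIA and 2 Acu libraries. A fit that also leaves out Control 15 has Control 16 as its only Control library, and the reverse. Leaving out Acu 6 or Acu 28 does the same to Acu. The spread of a group with a single library is not measured in such a fit. In such bulk samples, fewer mast cells and less RNA per mast cell cannot be told apart.

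**Figure D1:**
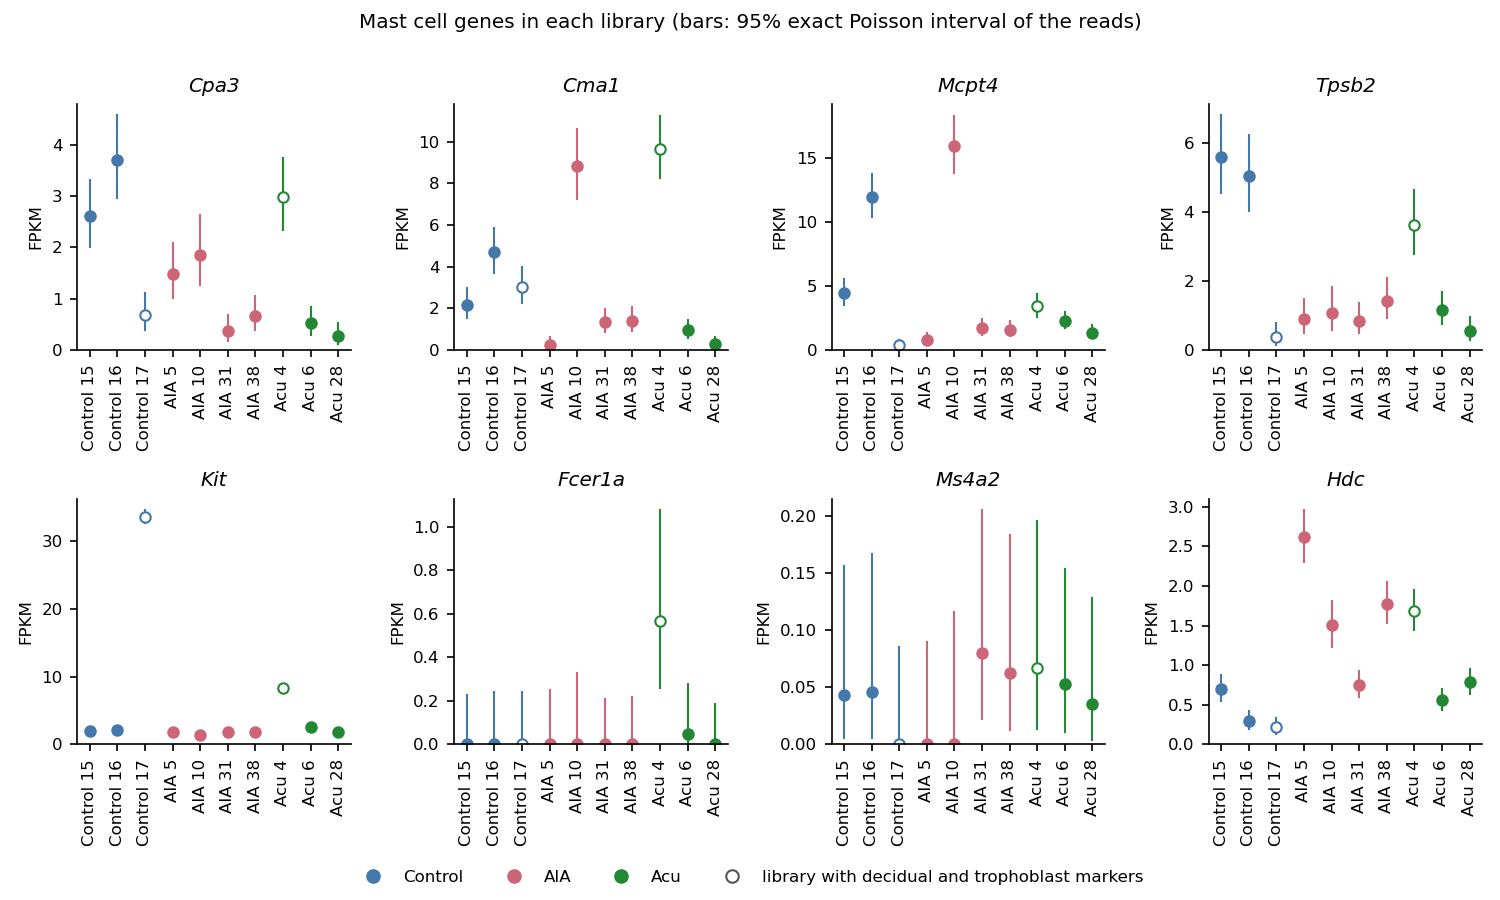
FPKM of the 8 mast cell genes in each library, 1 panel per gene, with bars for the exact 95% Poisson interval of the reads behind each value (counting error only). Open circles mark the libraries labelled Control 17 and Acu 4. Tpsb2 stands at 5.57 and 5.03 FPKM in Control 15 and 16 and at 0.553 to 1.41 FPKM in the other closed points, and Kit at 33.6 FPKM in the library labelled Control 17.

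Saline nodes were compared with adjuvant nodes to ask how the mast cell genes stood after induction of arthritis. In Control 15 and 16, Tpsb2 and Cpa3 stood above every AIA library, Mcpt4 and Cma1 stood above every AIA library but AIA 10, and Hdc stood below every AIA library. The library labelled Control 17 broke this pattern for Tpsb2, Cpa3 and Mcpt4. Of the 8 genes, 6 passed the filter on low values (0.5 FPKM or more in 3 libraries or more) and none passed an adjusted p of 0.05 by limma's moderated test over all 10 libraries; 1 did at an unadjusted p under 0.05. The share of all 17010 tested genes that passed was 0.0235% (4 genes; 4246 at an unadjusted p under 0.05). Without the libraries labelled Control 17 and Acu 4, 1 member passed, Tpsb2, which was lower in AIA, against 13.5% of 16067 genes (9.20% lower and 4.28% higher). The median log2 fold change of the 6 members was −0.57 with 10 libraries and −0.80 with 8, beside −0.07 and −0.01 over all genes tested. AIA and Control did not overlap for 2 members with 10 libraries (Kit and Hdc), against 25.3% of all genes, and for 4 members with 8 (Cpa3, Tpsb2, Kit and Hdc), against 38.8%. Fold changes are on the log2(FPKM + 1) scale, which makes changes of low genes smaller.

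Tpsb2 encodes the beta tryptase mMCP-6, held in granules by heparin. Its level was 5.57, 5.03 and 0.362 FPKM in Control 15, 16 and 17. In AIA 5, 10, 31 and 38 it was 0.883, 1.06, 0.833 and 1.41 FPKM. In Acu 4, 6 and 28 it was 3.60, 1.14 and 0.553 FPKM. The saline libraries without decidual markers stood above every adjuvant library, and the library labelled Control 17, at 6 reads, stood below them all. With all 10 libraries Tpsb2 differed between AIA and Control by −0.89 (SE 0.57, limma adjusted p = 0.341). Without the libraries labelled Control 17 and Acu 4 it fell by 1.63 (SE 0.26, limma adjusted p = 0.00728). The mean was 5.30 ± 0.383 FPKM (SD, n = 2) in Control and 1.05 ± 0.263 FPKM (SD, n = 4) in AIA. Leaving out Control 15 as well, with Control 16 as the only Control library, gave −1.59 and lost the call. Leaving out Control 16 instead gave −1.70, which rests on Control 15 alone. The call held when any AIA or Acu library of the 8 was left out. Its neighbour Tpsab1, a related tryptase, reached at most 1.10 FPKM, and no stretch of 50 bases is shared by the transcripts of either gene with another gene.

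Cpa3 encodes carboxypeptidase A3, which trims peptides after the chymases have cut them. It was at 2.61, 3.71 and 0.687 FPKM in Control 15, 16 and 17, at 1.48, 1.86, 0.371 and 0.659 FPKM in AIA 5, 10, 31 and 38, and at 2.98, 0.520 and 0.263 FPKM in Acu 4, 6 and 28. Control 15 and 16 again stood above every AIA library, and AIA 5 and AIA 10 stood above AIA 31 and AIA 38. The difference between AIA and Control was −0.61 (SE 0.50, limma adjusted p = 0.455) with 10 libraries and −1.04 (SE 0.35, limma adjusted p = 0.0830) with 8. Leaving out AIA 10 in addition gave −1.16 with an adjusted p of 0.0365. The gene overlaps Mir7007 on the same strand, which reached at most 1.61 FPKM.

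Mcpt4, a chymase of connective tissue mast cells, was at 4.45, 12.0 and 0.353 FPKM in Control 15, 16 and 17. In AIA 5, 10, 31 and 38 it was at 0.738, 15.9, 1.73 and 1.59 FPKM. In Acu 4, 6 and 28 it was at 3.40, 2.27 and 1.35 FPKM. AIA 10 held the highest level of all libraries, so AIA and Control overlapped, while the other AIA libraries stood below Control 15 and 16. The difference was −0.27 (SE 0.88, limma adjusted p = 0.867) with 10 libraries and −1.15 (SE 0.84, limma adjusted p = 0.401) with 8, and −1.80 (limma adjusted p = 0.0264) with 8 less AIA 10. Of 1059 stretches of 50 bases in its transcripts, 58 also occur in Cma2 and 7 in Mcpt9, so reads there could be split between these genes; Mcpt9 is listed at 0 in every library and Cma2 reached at most 0.119 FPKM.

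Cma1, the alpha chymase mMCP-5, was at 2.18, 4.69 and 3.05 FPKM in Control 15, 16 and 17, at 0.250, 8.82, 1.34 and 1.40 FPKM in AIA 5, 10, 31 and 38, and at 9.68, 0.950 and 0.274 FPKM in Acu 4, 6 and 28. The library labelled Acu 4 and AIA 10 were the highest, and AIA 5, with 4 reads, was the lowest. Cma1 differed by −0.54 (SE 0.81, limma adjusted p = 0.697) with 10 libraries and by −0.56 (SE 0.72, limma adjusted p = 0.646) with 8. Its groups overlapped either way. Of 1041 stretches of 50 bases in its transcripts, 56 also occur in Gm48934, so reads there could be split.

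The mix of the 4 proteases differed from library to library. Their summed level was 14.8, 25.4 and 4.45 FPKM in Control 15, 16 and 17, 3.35, 27.7, 4.27 and 5.07 FPKM in AIA 5, 10, 31 and 38, and 19.7, 4.88 and 2.44 FPKM in Acu 4, 6 and 28. Tpsb2 was the most abundant protease in Control 15 (37.6% of the sum), Cpa3 in AIA 5 (44.2%), and Cma1 in the libraries labelled Control 17 (68.5%) and Acu 4 (49.2%). Mcpt4 led in the other 6 libraries, at 31.4% to 57.6%. In AIA 10, Mcpt4 and Cma1 made up 57.6% and 31.9% of the sum and Tpsb2 3.83%. The ratio of Mcpt4 to Tpsb2 was 15.01 in that library and 0.798 to 2.44 in the other 9. The ratio of Cma1 to Tpsb2 was 8.32 in AIA 10 and 8.43 in the library labelled Control 17, on 13 and 6 reads of Tpsb2. The mucosal proteases were also highest in AIA 10, with Mcpt2 at 1.66 FPKM and Mcpt1 at 0.957 FPKM, and were both at 0 in Control 15 and 16.

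**Figure D2:**
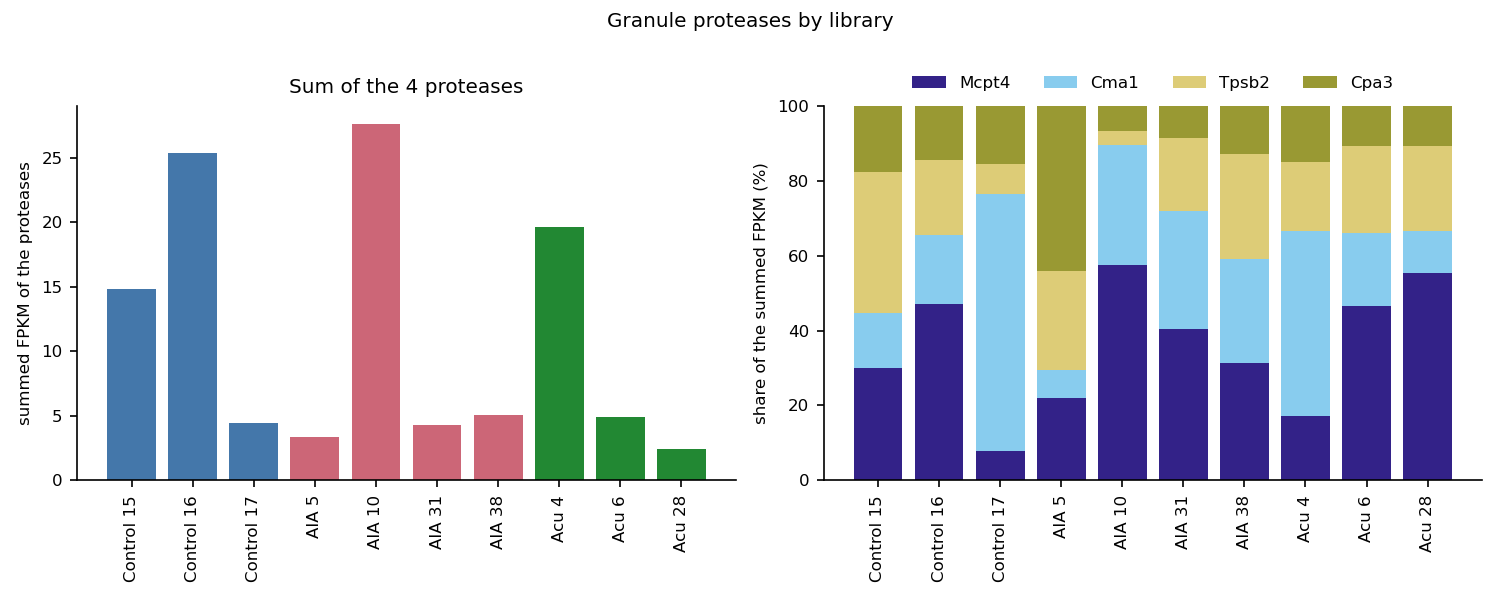
Summed FPKM of Cpa3, Cma1, Mcpt4 and Tpsb2 in each library (left, bars coloured by group) and the share of each protease in that sum in percent (right). The sum is 27.7 FPKM in AIA 10, where Tpsb2 takes 3.83%, and 14.8 FPKM in Control 15, where it takes 37.6%.

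Across the 8 libraries the chymases Cma1 and Mcpt4, of the chromosome 14 cluster, had the highest correlation among the 6 tested members. Pearson's r of log2(FPKM + 1) was 0.961 for Cma1 and Mcpt4 (Spearman's rho 0.905, n = 8). Without Control 16 and AIA 10 this pair was no longer the highest. Its r was then 0.829, beside 0.858 for Mcpt4 and Tpsb2 and 0.761 for Cma1 and Tpsb2. Cpa3 and Tpsb2 had r = 0.817 (rho 0.786), which rested on Control 15 and 16 and was 0.316 without them. Kit and Hdc ran against each other (r = −0.548, rho −0.762). These are descriptions over libraries that share a group, their tissue content and the scaling.

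Hdc, histidine decarboxylase, was the tested member with a positive fold change in AIA against Control. It was at 0.695, 0.294 and 0.214 FPKM in Control 15, 16 and 17, at 2.61, 1.505, 0.749 and 1.78 FPKM in AIA 5, 10, 31 and 38, and at 1.68, 0.556 and 0.788 FPKM in Acu 4, 6 and 28. Every AIA library stood above every Control library, AIA 31 and Control 15 being closest. The difference was 0.90 (SE 0.31, unadjusted p = 0.0168, limma adjusted p = 0.130) with 10 libraries and 0.79 (SE 0.32, limma adjusted p = 0.138) with 8, so Hdc missed the threshold. Hdc is also made by neutrophils and macrophages, and neutrophil markers summed to 5.00, 8.56 and 460 FPKM in Control 15, 16 and 17, and to 415, 299, 64.0 and 721 FPKM in AIA 5, 10, 31 and 38. That sum was larger in the library labelled Control 17, with the lowest Hdc, than in AIA 5, 10 and 31. S100a8 alone stood at 453 FPKM in the library labelled Control 17. Of the 8 neutrophil markers, 3 reached 1 FPKM there, against 8, 4, 5 and 8 in AIA 5, 10, 31 and 38. In the 8-library fit 2 of 8 neutrophil markers (S100a8 and S100a9) rose and none fell, beside 4.28% of all genes that rose. Without Control 15 as well, S100a9 alone passed. The part of neutrophils in the Hdc levels was not tested.

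Histamine breakdown and reception were read from the methyltransferase Hnmt, the diamine oxidase Aoc1 and the receptors Hrh1 to Hrh4. Hnmt fell by 2.04 in AIA against Control in the 8-library fit (SE 0.51, limma adjusted p = 0.0356); it was at 15.4, 2.82 and 0.295 FPKM in Control 15, 16 and 17 and at 0.509 to 1.23 FPKM in AIA. Hnmt was highest in Control 15, without which the adjusted p was 0.162; the call was also lost without AIA 5, AIA 31, AIA 38, Acu 6 or Acu 28 (adjusted p from 0.0683 to 0.0791). Aoc1 stood at 591 and 118 FPKM in the libraries labelled Control 17 and Acu 4 and at no more than 1.82 FPKM elsewhere. Hrh2 had 1.57, 1.21 and 5.89 FPKM in Control 15, 16 and 17 and 0.401 to 1.58 FPKM in AIA. The Mas-related receptors of mast cells were nearly silent, with at most 0.155 FPKM for Mrgprb1 and 0.0605 FPKM for Mrgprb2, and Hrh3 was listed at 0 throughout. Of the 9 genes of this list, 3 were tested, none passed with 10 libraries, and Hnmt passed with 8.

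Kit, the stem cell factor receptor, was highest in the libraries labelled Control 17 and Acu 4, which held decidual markers. It was at 1.92 and 2.14 FPKM in Control 15 and 16 and at 33.6 FPKM in the library labelled Control 17. It was at 1.83, 1.35, 1.79 and 1.79 FPKM in AIA 5, 10, 31 and 38, at 8.37 FPKM in the library labelled Acu 4, and at 2.61 and 1.85 FPKM in Acu 6 and 28. The libraries with decidual markers stood far above the rest, which lay within 1.35 to 2.61 FPKM. All AIA libraries lay below all Control libraries, by −1.35 (SE 0.80, limma adjusted p = 0.311) with 10 libraries and by −0.18 (SE 0.24, limma adjusted p = 0.664) with 8, so most of the 10-library value rested on the library labelled Control 17. The closest libraries, Control 15 and AIA 5, had overlapping exact 95% Poisson intervals of 1.70 to 2.16 and 1.60 to 2.08 FPKM. Gata2, Mitf and Srgn were also highest in these libraries, with 35.0, 102 and 3048 FPKM in the library labelled Control 17 and 15.6, 32.4 and 2158 FPKM in that labelled Acu 4. In these libraries, then, high Kit went with low Tpsb2 and Mcpt4 (Control 17) or with high Cma1 (Acu 4).

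The IgE receptor chains were at the edge of detection. Fcer1a had 9 reads (0.566 FPKM, exact 95% Poisson interval 0.259 to 1.08) in the library labelled Acu 4, 1 read in Acu 6 and none in the other 8 libraries, where 0 reads allow up to 0.150 to 0.265 FPKM (3 reads). Ms4a2 had 2 to 4 reads in 7 libraries and none in the library labelled Control 17, AIA 5 and AIA 10, and never exceeded 0.0800 FPKM; 63 of the 3003 stretches of 50 bases in its transcripts also occur in Ms4a4b. Neither gene passed the filter, and no difference between groups was detectable at this depth. Their partner Fcer1g, the shared gamma chain that many myeloid cells use, was at 11.6 to 129 FPKM.

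**Figure D3:**
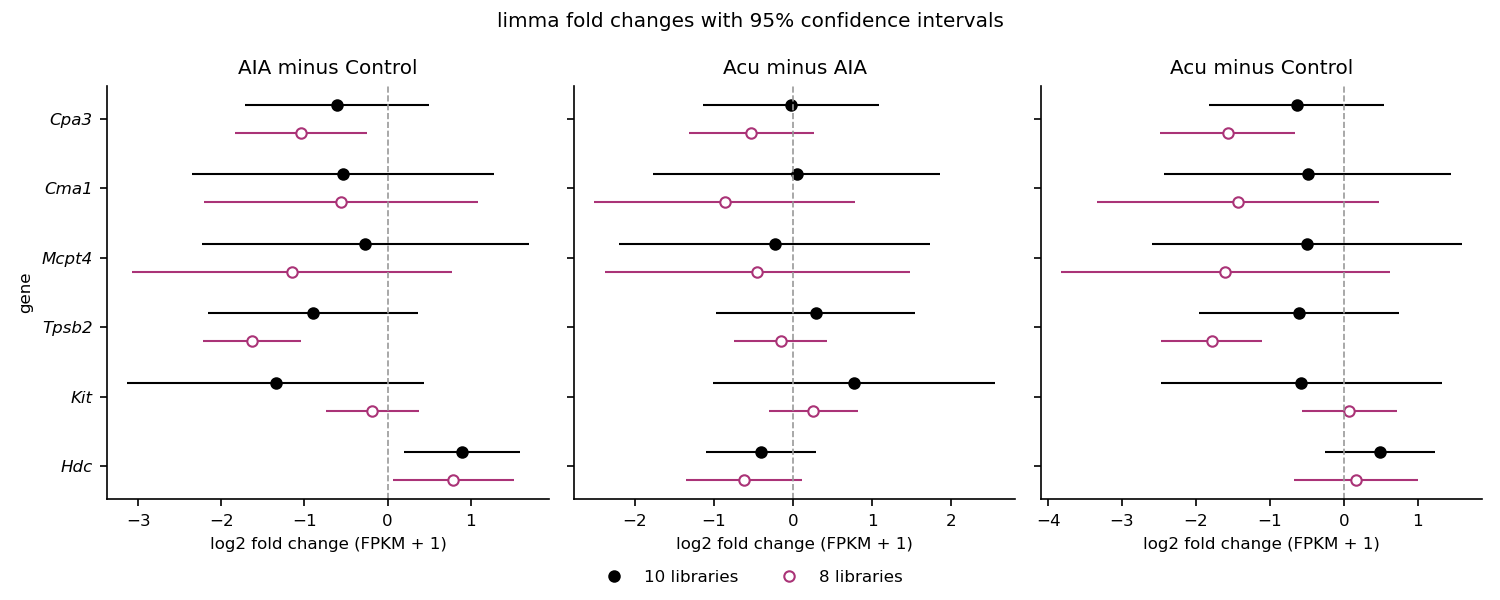
Log2 fold change of FPKM + 1 with its 95% confidence interval (limma) for the 6 tested mast cell genes in the 3 comparisons, with all 10 libraries (closed) and with 8 (open). The 8-library intervals of Tpsb2 and Cpa3 lie below 0 against Control for AIA (−2.22 to −1.04 and −1.83 to −0.25) and for Acu, and all intervals of Acu minus AIA cross 0.

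Genes that signal below the IgE receptor, which B cells and other leukocytes also use, were tested in AIA against Control. Of 13 genes, all tested, none passed with 10 libraries, while 3 rose and none fell with 8 (4.28% of all genes rose), with a median of 1.56 beside −0.01 over all genes. Without Control 15 as well, none passed and the median was 0.47 beside −0.03 over all genes, with Plcg2 at 1.25. They were Plcg2, a phospholipase (2.73, SE 0.70, limma adjusted p = 0.0387), Lyn, the kinase that phosphorylates the receptor (1.504, SE 0.37, limma adjusted p = 0.0335), and Lcp2, the adaptor SLP-76 (2.24, SE 0.54, limma adjusted p = 0.0323). Plcg2 was at 1.40 and 16.8 FPKM in Control 15 and 16 and at 32.4 to 62.5 FPKM in AIA. Without Control 15 the adjusted p was 0.215 for Plcg2, 0.228 for Lyn and 0.135 for Lcp2, and without AIA 5, AIA 31, AIA 38, Acu 6 or Acu 28 it was 0.0705 to 0.0903 for Plcg2, 0.0441 to 0.0813 for Lyn (0.0441 without AIA 5) and 0.0575 to 0.0767 for Lcp2. Lat, the adaptor in T cells and mast cells, was at 0.352, 38.8 and 0.659 FPKM in Control 15, 16 and 17 and at 37.1 to 153 FPKM in AIA (8 libraries: 2.94, SE 1.18, limma adjusted p = 0.136). B cell markers summed to 4.47 and 724 FPKM in Control 15 and 16 and to 776 to 1113 FPKM in AIA. T cell markers summed to 4.46, 165 and 3.53 FPKM in Control 15, 16 and 17 and to 192 to 291 FPKM in AIA. The part of B and T cells in these differences was not tested.

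The genes for mast cell growth and transcription moved in both directions. Of 12 genes, 10 were tested, none passed with 10 libraries, and with 8 libraries 1 rose and 2 fell in AIA against Control. Kitl, stem cell factor itself, fell by 2.28 (SE 0.49, limma adjusted p = 0.0211). It was at 27.6 and 9.20 FPKM in Control 15 and 16 and at 3.31, 1.00, 3.19 and 3.28 FPKM in AIA 5, 10, 31 and 38. Gata2 fell by 2.02 (SE 0.32, limma adjusted p = 0.00695), from 6.28 and 3.03 FPKM to 0.328, 0, 0.521 and 0.545 FPKM. Il33, an alarmin that activates mast cells through Il1rl1, rose by 2.41 (SE 0.49, limma adjusted p = 0.0171), from 1.35 and 5.09 FPKM to 14.4, 16.8, 15.8 and 35.9 FPKM. For these 3 genes no AIA library overlapped Control 15 or 16, and Acu 6 and 28 lay with AIA (3.24 and 2.14 FPKM for Kitl, 0.740 and 0.498 FPKM for Gata2, 18.4 and 14.6 FPKM for Il33). Each call was lost without Control 15, which left Control 16 as the only Control library. The differences were then −1.56 for Kitl, −1.62 for Gata2 and 1.70 for Il33. Each call held without any AIA or Acu library of the 8. Mitf differed by −0.12 (limma adjusted p = 0.864) and Stat5b by 0.05 (limma adjusted p = 0.932) with 8 libraries, and Il9 was listed at 0 in every library. Kitl, Gata2, Lyn and Lcp2 were named after their values were seen. Which cells of the bulk samples gave the levels of Kitl, Gata2 and Il33 is not known. Adipocyte markers summed to 26626 and 9096 FPKM in Control 15 and 16 and to 47.1 to 388 FPKM in AIA. The part of tissue content in the differences of these 3 genes was not tested.

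**Figure D4:**
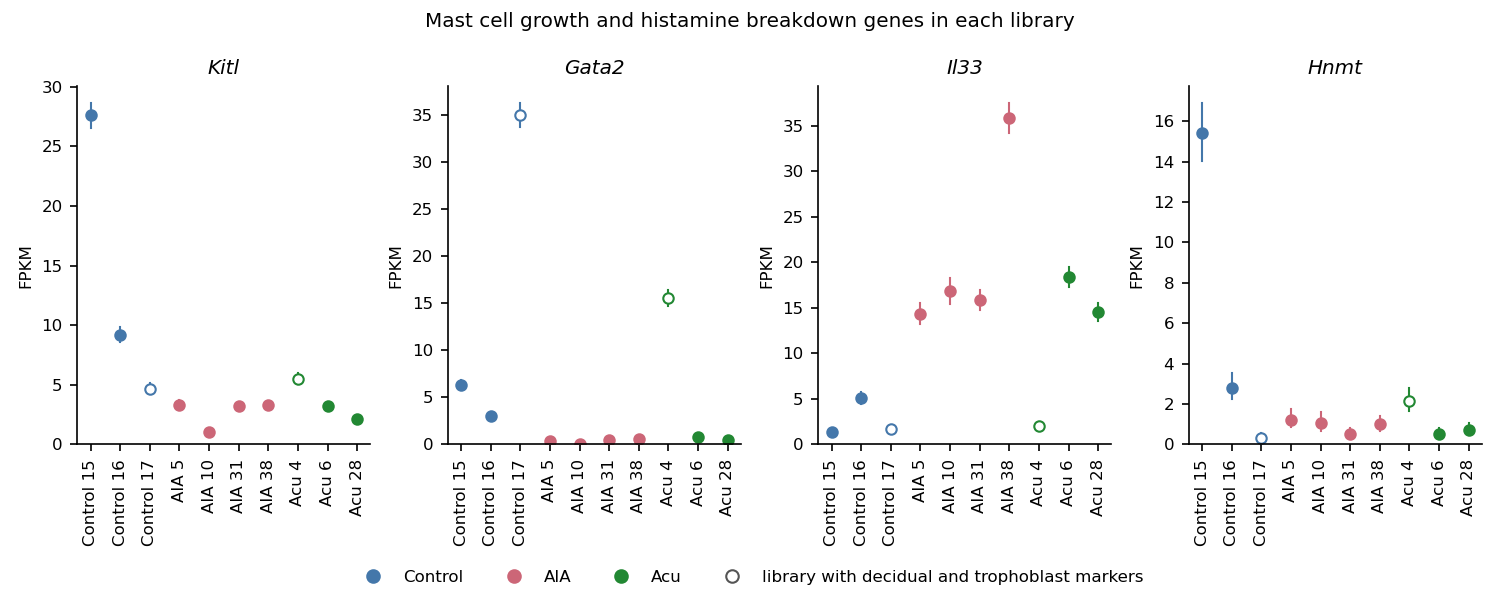
FPKM of Kitl, Gata2, Il33 and Hnmt in each library, with bars for the exact 95% Poisson interval of the reads (counting error only); open circles mark the libraries labelled Control 17 and Acu 4. Kitl and Hnmt are highest in Control 15 (27.6 and 15.4 FPKM), Gata2 in the library labelled Control 17 (35.0 FPKM), and Il33 is at 14.4 FPKM or more in all AIA libraries and in Acu 6 and 28.

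Among other granule and mediator genes, Srgn, the core protein of granule proteoglycan in mast cells and many leukocytes, rose by 2.10 in AIA against Control in the 8-library fit (SE 0.38, limma adjusted p = 0.0117). It stood at 41.7 and 56.1 FPKM in Control 15 and 16 and at 180, 273, 167 and 245 FPKM in AIA 5, 10, 31 and 38, and lost the call without Control 15 (limma adjusted p = 0.0838). Of the 15 genes of this list, 8 were tested with 10 libraries and 6 with 8, none passed with 10 libraries, and Srgn passed with 8. Ndst2, which sulfates heparin, was at 7.59, 7.03 and 27.1 FPKM in Control 15, 16 and 17 and at 7.003, 0.408, 7.99 and 6.50 FPKM in AIA 5, 10, 31 and 38, AIA 10 standing far below the rest. Ctsg, cathepsin G of neutrophils and mast cells, reached 142 and 43.9 FPKM in the libraries labelled Control 17 and Acu 4 and 9.40 FPKM in AIA 38, and was at most 0.708 FPKM elsewhere.

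Basophils share Fcer1a, Ms4a2, Hdc and Cpa3 with mast cells, so a list of 4 basophil markers was read beside them. Which cells gave the levels of those markers was not tested. Mcpt8, a basophil granule protease, was at 7.64 and 4.59 FPKM in the libraries labelled Control 17 and Acu 4 and at most 0.530 FPKM elsewhere. Prss34 never exceeded 0.310 FPKM and Cd200r3 never exceeded 0.216 FPKM. Il4 was at 1.34, 0.897 and 1.59 FPKM in Control 15, 16 and 17 and at 0.278, 0, 0.872 and 0.384 FPKM in AIA 5, 10, 31 and 38, without passing the test (−0.75, SE 0.26, limma adjusted p = 0.129 with 10 libraries). The 4 basophil markers summed to 1.35, 0.951 and 9.33 FPKM in Control 15, 16 and 17 and to 0 to 1.24 FPKM in AIA. They summed to 5.99, 0.890 and 0.873 FPKM in Acu 4, 6 and 28, so the libraries labelled Control 17 and Acu 4 alone stood far above AIA. Melanocyte markers, of another cell type that uses Kit, summed to 0.437 to 10.4 FPKM.

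Markers of fat, muscle and connective tissue, in which mast cells also live, were read beside the proteases. With 10 libraries no marker of these 3 lists passed in any comparison. With 8 libraries all 7 tested adipocyte markers fell in AIA and in Acu against Control, with medians of −6.72 and −5.74, as did 2 of 8 skeletal muscle markers in AIA, and 3 of 7 fibroblast markers in AIA and 2 of 7 in Acu. Of all genes, 9.20% fell in AIA and 3.55% in Acu. Without Control 15, 4 adipocyte, 0 muscle and 2 fibroblast markers passed in AIA, and none of the 3 lists had a marker that passed in Acu. Control 15 and 16, the libraries with the most Tpsb2, held 26626 and 9096 FPKM of adipocyte markers. The library labelled Acu 4, next in Tpsb2, held 121 FPKM, and that labelled Control 17, with the least Tpsb2, held 234 FPKM. Fibroblast markers summed to 588, 165 and 1134 FPKM in Control 15, 16 and 17 and to 2371 FPKM in the library labelled Acu 4. They summed to 96.4 to 255 FPKM in AIA and to 150 and 159 FPKM in Acu 6 and 28. Skeletal muscle markers summed to 2524 and 10060 FPKM in Control 15 and 16 and to 2638 FPKM in Acu 28, where Mcpt4 was at 1.35 FPKM. AIA 10, the library with the most Mcpt4, held 216 FPKM of adipocyte and 213 FPKM of muscle markers. Mitochondrially encoded genes took 24.5% and 34.2% of all FPKM in Control 15 and 16 and 1.34% to 10.4% elsewhere. The part of surrounding tissue or of the mitochondrial share in the fall of Tpsb2 was not tested.

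**Figure D5:**
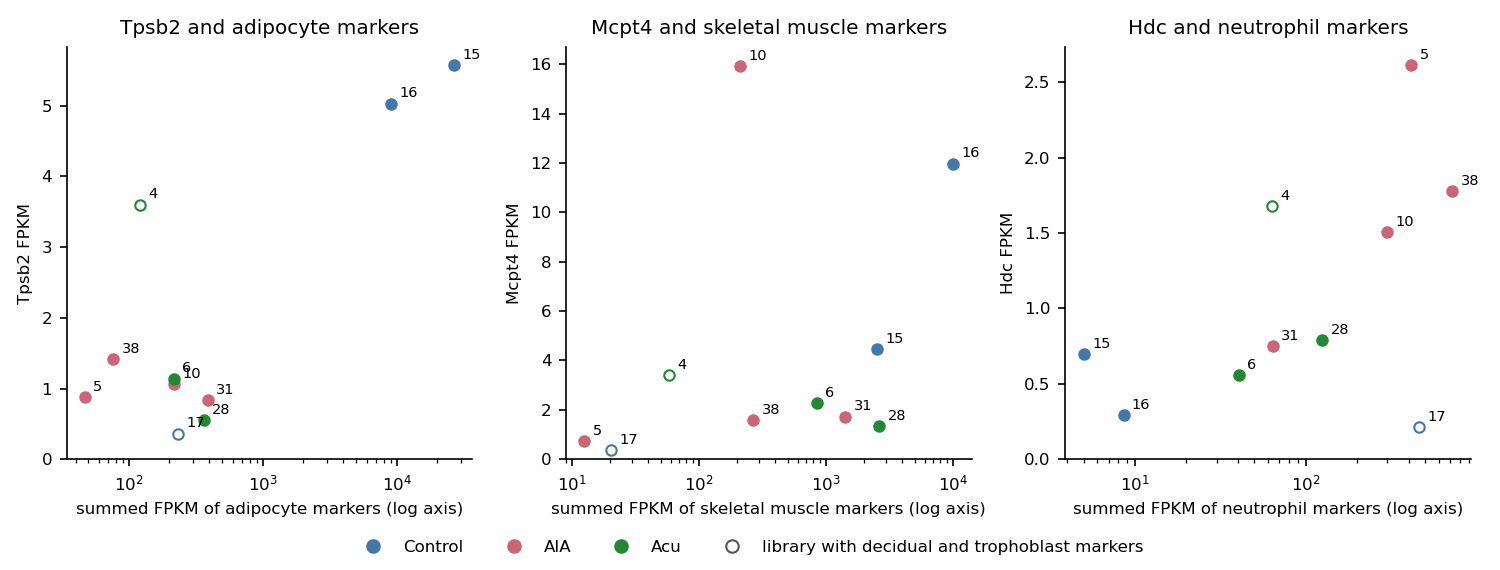
Each point is a library, with FPKM of Tpsb2, Mcpt4 or Hdc against the summed FPKM of adipocyte, skeletal muscle or neutrophil markers on a log axis; numbers are library numbers and open circles mark the libraries labelled Control 17 and Acu 4. Control 15 and 16 are high in both Tpsb2 (5.57 and 5.03 FPKM) and adipocyte markers. AIA 10 is high in Mcpt4 (15.9 FPKM) with 213 FPKM of muscle markers. The library labelled Control 17 has 460 FPKM of neutrophil markers, 453 FPKM of it from S100a8, with 0.214 FPKM of Hdc.

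Acupuncture was compared with adjuvant alone to ask whether it changed what the adjuvant did. No mast cell gene passed the threshold in Acu against AIA with 10 or with 8 libraries (limma, 0 of 6 at an unadjusted p under 0.05 in either), nor did any gene in all (0% and 0%; 799 and 480 genes at an unadjusted p under 0.05). The median of the 6 members was 0.01 with 10 libraries and −0.49 with 8, beside 0.08 and 0.06 over all genes. With 8 libraries Tpsb2 differed by −0.16 (95% interval −0.75 to 0.44), Cpa3 by −0.53 (−1.32 to 0.27) and Hdc by −0.62 (−1.35 to 0.11). The intervals of the chymases were wider, at −2.38 to 1.48 for Mcpt4 and −2.51 to 0.78 for Cma1. A fall of 1 log2 unit lies within both intervals, and a rise of 1 lies within that of Mcpt4 but not that of Cma1. Kit did not overlap between Acu and AIA, 1 of 6 members against 11.1% of all genes with 10 libraries and 17.1% with 8. It was higher in Acu by 0.77 (SE 0.80, limma adjusted p = 0.769) with 10 libraries and by 0.26 (SE 0.24, limma adjusted p = 0.984) with 8. The closest Kit levels, 1.85 FPKM in Acu 28 and 1.83 FPKM in AIA 5, had overlapping exact 95% Poisson intervals (1.66 to 2.06 and 1.60 to 2.08).

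Acu against Control shares its Control libraries with the first comparison. With 10 libraries no member passed (0% of all genes, 1275 at an unadjusted p under 0.05), and no member's groups failed to overlap, against 9.15% of all genes. With 8 libraries Tpsb2 fell by 1.78 (SE 0.30, limma adjusted p = 0.0208), against 4.44% of all genes called (3.55% lower and 0.890% higher). That call was lost without Control 15 (limma adjusted p = 0.109), AIA 5 (0.0501), Acu 6 (0.182) or Acu 28 (0.153). All 4 proteases stood lower in Acu 6 and 28 than in Control 15 and 16 without overlap, where 61.0% of all genes did not overlap with so few libraries. Cpa3 differed by −1.57 (SE 0.40, limma adjusted p = 0.0669), Mcpt4 by −1.60 (SE 0.97, limma adjusted p = 0.372) and Cma1 by −1.43 (SE 0.83, limma adjusted p = 0.351). Hdc differed by 0.17 (SE 0.37, limma adjusted p = 0.838). Gata2 also fell, by 1.74 (SE 0.37, limma adjusted p = 0.0382), a call lost without Control 15 (0.192), AIA 5 (0.0742), AIA 31 (0.0692), AIA 38 (0.0673), Acu 6 (0.244) or Acu 28 (0.207).

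The genes whose levels were most like those of the mast cell genes were sought across the 10 libraries, as the highest Pearson r with the mean standardized level of the 6 tested members. They were Mrps6 (r = 0.897), Cpxm2 (0.893), Cst6 (0.890), Mxra7 (0.870), Nfatc4 (0.869), Plscr2 (0.861), Gal3st1 (0.860) and Bvht (0.859). Over the 8 libraries the r of these genes ran from 0.753 (Mrps6) to 0.895 (Cst6). Each was higher in Control 15, AIA 10 and the library labelled Acu 4 than in AIA 31, AIA 38, Acu 6 and Acu 28; Mrps6, a mitochondrial ribosomal protein gene, had 70.2, 53.2 and 86.5 FPKM in the first 3 and 10.6 to 20.6 FPKM in the last 4. The mean standardized level of the members was highest in the library labelled Acu 4 (0.957), Control 16 (0.619) and AIA 10 (0.553) and lowest in Acu 28 (−0.779). These are descriptions over libraries that share tissue content and depth, chosen from 17010 genes.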

How the data were processed

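RNA was sequenced from popliteal lymph nodes after Trizol extraction and NEBNext Ultra library preparation, per the labels' protocols. Per the submitters' processing notes, which give neither role nor order, mm10 was the build and the tools were featureCounts 1.5.0-p3, HISAT2 2.0.5, DESeq2 1.16.1 and StringTie 1.3.3b; strandedness was not given in the sources used here. The authors deposited FPKM with gene lengths. FPKM times length was a whole multiple of 1 step per library (100% of genes, within 0.01 of a step), which gave back reads, from 13269763 to 18926894 per library. The worth of a read in FPKM followed the median-of-ratios size factor of a library, not its own read total, so that scaling moved nothing between libraries. limma 3.58.1 (R 4.3.3, mean-variance trend, tested on simulated data) was fitted to log2(FPKM + 1) of the genes with at least 0.5 FPKM in at least 3 libraries, with Benjamini-Hochberg adjustment over all of them and a threshold of 0.05. Named were all members, the 3 highest genes of each related list and any past the threshold, all basophil genes and the 8 genes most like the members. Members and lists were chosen with earlier results of these data known, and the fits with 8 or fewer libraries also. Other pseudocounts, filters, limma's voom and leaving out each library were tried. Intervals of reads cover counting error only.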

Additional observations from a re-analysis of the deposited data

Results flagged for a closer look

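AIA 10 stood apart from the other 3 AIA libraries for 3 mast cell genes, by a gap to the nearest library that took more of the range of the group than the 95% critical value of Dixon's test. Cma1 was high at 8.82 FPKM, with the gap at 0.865 of the range. Mcpt4 was high at 15.9 FPKM, with the gap at 0.935 of the range. Kit was low at 1.35 FPKM, with the gap at 0.918 of the range. Its exact 95% Poisson interval in AIA 10 (1.130 to 1.593 FPKM) overlapped those in AIA 38 (1.582 to 2.015) and AIA 31 (1.591 to 2.015). It did not overlap that in AIA 5 (1.604 to 2.075). Chance gives such a gap in about 1 in 20 groups of normally distributed values, which FPKM need not be. Of all tested genes, 15.7% had one in AIA (2675 of 17010), with AIA 10 the highest library in 9.35% (1591 genes). The share with AIA 10 the lowest library, the case of Kit, was not computed. AIA 10 also had the fewest genes above 0 (15116) and the fewest recovered reads (13269763), and the part of these in its values was not tested.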

How the results depend on the processing

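No paired analysis was possible because the groups share no replicate number. Of 414 alternatives over 18 member fold changes, 354 kept direction and side of the threshold, 44 reversed and 16 passed the threshold that the 10-library fit missed; the cause was not tested. Genes called in AIA against Control were 0 with a pseudocount of 0.1, 1 without a filter, 0 by voom, 2166 without the libraries labelled Control 17 and Acu 4 and 486 also without Control 15, and 0 to 1708 leaving out 1 library of 10. In Acu against AIA they were 2 without a filter and 0 to 1 leaving out 1 library. In Acu against Control they were 1 without a filter, 713 without the libraries labelled Control 17 and Acu 4, and 0 to 299 leaving out 1 library. Members called rose to 1 in AIA and in Acu against Control without the libraries labelled Control 17 and Acu 4. Leaving out 1 of these 8, 486 (Control 15) to 3386 (AIA 10) genes were called in AIA and 0 to 2073 in Acu against Control.

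Reversed fold changes of Acu against AIA were −0.043 (pseudocount of 0.1), −0.10 (voom), −0.87 (8 libraries) and −0.86 (also without Control 15) for Cma1, and −0.16 and −0.15 in the last 2 for Tpsb2. Kit in Acu against Control was 0.078 and 0.0033 there. Leaving out 1 library, of 10 or of these 8, AIA against Control ranged from −1.80 to 0.48 for Mcpt4. Acu against AIA ranged from −0.71 to 0.29 for Cpa3, −1.27 to 0.66 for Cma1, −0.83 to 0.45 for Mcpt4 and −0.39 to 0.62 for Tpsb2. Acu against Control ranged from −1.73 to 0.12 for Cma1, −1.84 to 0.25 for Mcpt4, −1.19 to 0.61 for Kit and −0.031 to 0.66 for Hdc. Depth limits Fcer1a and Ms4a2, with at most 9 and 4 reads in a library.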
